A study of Mus musculus with 69 samples.

Results

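Lung gene expression was measured 28 days after a single instillation of 54 µg of titanium dioxide nanoparticles into the trachea, the middle of 3 doses, to see what was left of the response at that dose. The 10 exposed lungs, 5 given NRCWE-001 and 5 given NRCWE-002, were set against 4 lungs given the vehicle alone. These 14 of the 69 arrays of the series were chosen by the particle, dose and day in their labels, with earlier results of these data known. Of the particles, NRCWE-001 was left unmodified, while the surface of NRCWE-002 was changed to carry a positive charge. Vehicle mice received the dispersion liquid, which was water with 2% serum in the design of the study and water in the sample titles. All mice were female C57BL/6, were 5 to 7 weeks old on arrival and had 1 to 3 weeks to acclimatise. Each array held the RNA of 1 mouse, labelled with Cy5, beside a common mouse reference RNA labelled with Cy3. RNA came from a small frozen section of lung, so the mix of cell types could differ between mice, and in such bulk tissue fewer cells of a type cannot be told apart from less RNA per cell. A level below is the log2 ratio of lung to reference RNA, and a difference is a difference of mean levels with its 95% interval.

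Particles that reach the alveoli are taken up by alveolar macrophages, and the macrophages and epithelium around them release chemokines that draw neutrophils and monocytes. The lung itself makes acute phase proteins such as the serum amyloid A family, which rise within hours of an insult and return as it passes. Macrophages that keep an undigested load express genes of lysosomes and lipid handling, among them Gpnmb, Trem2 and Spp1. Apart from inflammation, heat shock proteins are chaperones that refold damaged proteins, and the circadian clock sets the daily rhythm of many lung genes, so that the hour of sampling can move them.

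The 14 arrays were alike in quality, with 64.4% to 71.0% of spots well above background in the lung channel. Pairs of arrays correlated at 0.878 to 0.991 across genes, and the median was 0.964 for pairs of one group and 0.965 for pairs of different groups. Pairs on one slide were more alike, with a median of 0.978 against 0.963 for pairs on different slides. The second NRCWE-002 array stood apart, with a median correlation of 0.902 to the other arrays against 0.933 to 0.976 for the rest. On that array Lars2, a mitochondrial leucyl-tRNA synthetase, lay at 6.66, and on the other arrays it lay at 1.14 to 2.07. The fourth vehicle array had Xist, the RNA that silences an X chromosome in female cells, at −3.28, while no other of the 14 arrays was below 0.46. The Y-linked gene Kdm5d was above background on 0 of the 14 arrays, this one included. The first NRCWE-002 array had the highest mean level of interferon-stimulated genes, 1.98, where the other arrays had 0.26 to 0.83. The genes of these checks were chosen after their values were seen, and results that rest on the arrays are given with and without them.

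With both particles pooled, no gene differed from the vehicle after adjustment at 54 µg on day 28. Of 17628 genes, 0 were called by limma at an adjusted p below 0.05, which is 0%, and the smallest adjusted p was 0.963. At an unadjusted p below 0.05 there were 463 genes, or 2.63%, where 5% is expected by chance, with 209 higher (1.19%) and 254 lower (1.44%). Without the vehicle array of low Xist and the NRCWE-002 array that stood apart, 0 genes were called and 581 had an unadjusted p below 0.05. Differences of the 10 exposed arrays from the 4 vehicle arrays had a median 95% interval of ±0.20 on the log2 scale, and for 10% of the genes it was wider than ±0.39. The difference was past 2-fold for 8 genes and past 1.5-fold for 43. Exposed and vehicle arrays did not overlap for some genes, with the 10 exposed ones above for 8, or 0.0454%, and below for 13, or 0.0738%. The count of called genes was also 0 for NRCWE-001 alone, with 511 genes or 2.9% at that p, and for NRCWE-002 alone, with 874 genes or 4.96%. The smallest adjusted p was 0.0831 for NRCWE-001 and 0.296 for NRCWE-002. All of these tests used 1 vehicle group of 4, so the counts for the 2 particles are not independent.

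The genes with the smallest p in the pooled comparison are therefore named as genes that were not called. Among the higher ones were the chaperones Hspa1a and Hsph1. Hspa1a encodes an inducible Hsp70, and Hsph1 encodes the Hsp110 that helps Hsp70 release its substrates. Hspa1a lay at 0.97, 0.21, 1.33 and 0.89 in the vehicle arrays. It lay at 1.53, 2.39, 1.70, 1.81 and 2.08 with NRCWE-001 and at 1.31, 1.74, 1.06, 0.99 and 1.43 with NRCWE-002. Every NRCWE-001 array was thus above every vehicle array, while 3 of the 5 NRCWE-002 arrays lay within the vehicle range. The pooled difference was 0.75 (0.39 to 1.12, unadjusted p = 1.28e-04), a 1.69-fold higher level. For NRCWE-001 alone it was 1.05 (0.64 to 1.47), or 2.07-fold, and this was the gene with the adjusted p of 0.0831. Hsph1 lay at −1.07, −1.37, −0.77 and −1.30 in the vehicle arrays, at −0.26, 0.25, −0.44, −0.45 and −0.91 with NRCWE-001 and at −0.48, −0.48, −1.01, −0.61 and −0.66 with NRCWE-002. In 8 of 10 exposed arrays it was above all vehicle arrays, and the pooled difference was 0.62 (0.27 to 0.98, unadjusted p = 8.44e-04). On the 4 slides that carried both a vehicle and a 54 µg array, the exposed array was higher for both genes each time, by 0.18 to 1.32 for Hspa1a and by 0.28 to 1.12 for Hsph1. Both genes were named for their small p on these same arrays, so these signs are not independent of that choice.

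Hspa1b, the near-identical neighbour of Hspa1a on chromosome 17, gave 0.27 (0.08 to 0.46, unadjusted p = 0.00574), with 8 of 10 exposed arrays above the vehicle arrays. Its 2 probes disagreed, at 0.12 and 0.43, and because the copies are so alike the share of signal that belongs to each is uncertain. The other chaperones were close to the vehicle, with Dnajb1, an Hsp40 partner of Hsp70, at 0.10 (−0.15 to 0.35), the cytosolic Hsp90 gene Hsp90aa1 at 0.16, the small heat shock protein gene Hspb1 at 0.12 and the constitutive Hsp70 gene Hspa8 at 0.0031. Of the 25 chaperone genes tested, 19 were higher and 6 lower, 0 were called and 3 had an unadjusted p below 0.05. Of all genes, 1.19% were higher and 1.44% lower at that p. The median difference of the 25 was 0.059, against −0.0039 over all genes.

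The promoters of these chaperone genes are shown because heat shock factor acts through short inverted repeats near the gene start. The 250 bases before each start come from the RefSeq table of build GRCm38.p6, on the minus strand, and capitals mark the element searched, which was GAANNTTC or TTCNNGAA, each its own reverse complement.
Hspa1a, chr17:34972157-34972406: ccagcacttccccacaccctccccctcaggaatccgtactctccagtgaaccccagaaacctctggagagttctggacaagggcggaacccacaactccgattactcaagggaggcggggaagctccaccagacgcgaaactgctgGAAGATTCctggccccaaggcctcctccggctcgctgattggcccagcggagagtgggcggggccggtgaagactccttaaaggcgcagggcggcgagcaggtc
Hsph1, chr5:149636337-149636586: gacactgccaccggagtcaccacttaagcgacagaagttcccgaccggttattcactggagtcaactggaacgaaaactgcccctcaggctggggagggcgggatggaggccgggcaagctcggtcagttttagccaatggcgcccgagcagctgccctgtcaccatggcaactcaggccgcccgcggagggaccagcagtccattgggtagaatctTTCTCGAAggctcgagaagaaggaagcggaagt
The element began 104 bases before the start of Hspa1a and 33 bases before that of Hsph1, for which the first of 2 listed starts was taken. The promoter of Hspa1b differed from that of Hspa1a at 3 of 250 bases and held the element at the same place. Of the chaperone genes, 20 had a promoter in the table, and 7 of these, or 35%, held the element, compared with 12.9% of all 27025 promoters. A match in these letters is a description of the sequence and was not tested as a binding site.

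Other genes at the top of the pooled comparison belonged to no list of chaperones. Banp, a nuclear-matrix and promoter-binding protein, lay at −0.75, −1.74, −0.56 and −0.36 in the vehicle arrays, at −0.83, 0.26, −0.16, 0.06 and −0.33 with NRCWE-001 and at −0.36, −0.26, −0.25, −0.52 and −0.30 with NRCWE-002. It gave 0.58 (0.29 to 0.88, unadjusted p = 2.19e-04), and 7 of 10 exposed arrays were above the vehicle range. Gnao1, a G protein subunit, lay between −0.27 and −0.25 in the vehicle arrays and between −0.22 and 0.05 in the exposed arrays, so the groups did not overlap although the difference was only 0.18 (0.07 to 0.29). Max, the partner of Myc, gave 0.31 (0.15 to 0.47). Apol7c gave 0.34 (0.15 to 0.53), with its 2 probes at 0.52 and 0.15, and Urb1 gave 0.17, with its 2 probes at 0.33 and 0.01. A530088E08Rik and Olfr503 are also among the 10 higher genes, but the first was above background on 2 of 4 vehicle and 1 of 10 exposed arrays and the second on 0 vehicle arrays and 1 exposed array, and no fold is given. Xist gave 1.04 (0.47 to 1.61), and this rested on the fourth vehicle array, without which it was 0.068.

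The lower genes were led by Slc35f3, a putative thiamine transporter, at −0.31 (−0.46 to −0.16, unadjusted p = 1.26e-04), with 9 of 10 exposed arrays below all vehicle arrays. Its 2 probes differed in size, at −0.49 and −0.14. Etv5, a transcription factor that keeps alveolar type 2 cells in their state, lay at 0.79, 1.12, 0.95 and 1.15 in the vehicle arrays. It lay at 0.50, 0.45, 0.50, 0.51 and 0.59 with NRCWE-001 and at 0.48, 0.77, 1.03, 0.46 and 0.58 with NRCWE-002. The third NRCWE-002 array was the only one inside the vehicle range, and the difference was −0.41 (−0.64 to −0.18, unadjusted p = 6.69e-04). Bmx, a Tec-family tyrosine kinase of endothelial cells, lay at 0.50 to 0.63 in the vehicle arrays and at 0.16 to 0.46 in all 10 exposed arrays, a difference of −0.24 (−0.38 to −0.11). Cyp2j6, a fatty acid epoxygenase, lay at 0.68 to 0.77 in the vehicle arrays and at 0.37 to 0.60 in all 10 exposed arrays, a difference of −0.20 (−0.33 to −0.06). With the processed signals of the scanner software Cyp2j6 turned to 0.043. Adcy7 at −0.32, Srpk2 at −0.25, Klhl23 and Fut8 at −0.19 each, Map2k6 at −0.15 and Hsf5 made up the rest. The 5 probes of Srpk2 disagreed, with 1 at −0.33, 3 at −0.09 to −0.04 and 1 at 0.12. No value is given for Hsf5, which was above background on 1 of 10 exposed arrays.

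**Figure D1:**
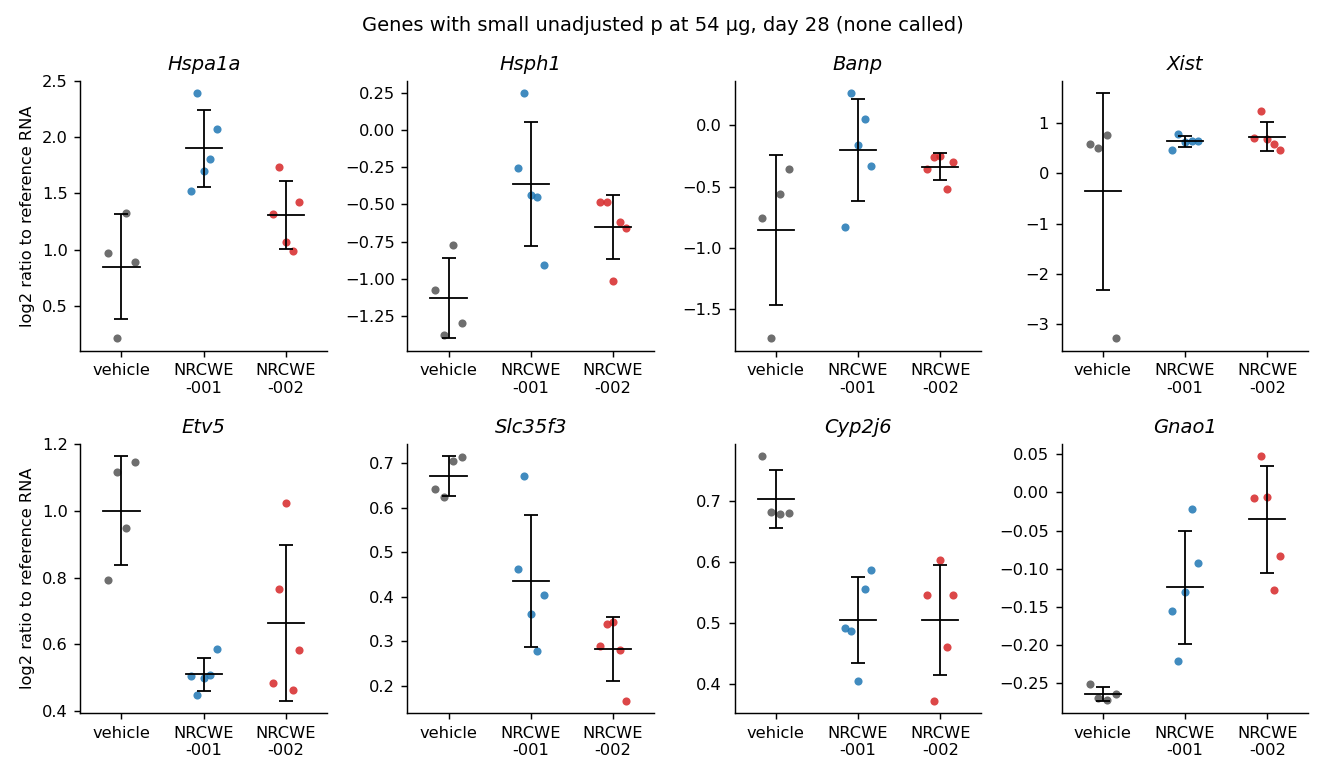
Level (log2 ratio to reference RNA) of 8 genes with small p-values in the vehicle, NRCWE-001 and NRCWE-002 arrays of 54 µg on day 28; points are mice, the bar is the mean and the error bar 1 SD. Hspa1a and Hsph1 sit higher with the particles and highest with NRCWE-001, Xist differs through 1 vehicle array at −3.28, and Cyp2j6 and Gnao1 do not overlap between vehicle and exposed arrays although the differences are −0.20 and 0.18.

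The gene lists gave the same picture of small shifts with 0 called members. Among inflammatory lists, the acute phase and innate defence proteins had 20 of 23 members higher, a median of 0.15 and 1 member at an unadjusted p below 0.05, which was lactoperoxidase (Lpo) at 0.14. CC chemokines and their receptors had 15 of 18 higher and a median of 0.18. Their mean level was −0.31 to 0.11 in the vehicle arrays, −0.37 to 0.27 with NRCWE-001 and −0.17 to 0.75 with NRCWE-002. Interferon-stimulated genes had 22 of 26 higher and a median of 0.097, but without the first NRCWE-002 array 12 were higher, 14 were lower and the median was −0.011. That was 1 of 12 settings run for the lists, which took other sources of the ratios, backgrounds, centrings or blocks or left out arrays that stood apart. Neutrophil markers had a median of 0.025 and 11 of 15 higher. Genes of IL-1, IL-6 and NF-kB signalling had a median of 0.051, the phagocyte receptors and lectins had 0.042, and complement had 7 of 14 higher and a median of 0.038. The medians of the phagocyte and complement lists were below 0 in 1 of these 12 settings each.

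Macrophage and repair genes were also close to the vehicle. Alveolar macrophage markers had 6 of 13 higher and a median of −0.027, the lysosome and lipid genes of macrophages had 10 of 26 higher and a median of −0.033, and genes of alternative activation had 8 of 11 higher and a median of 0.094. Retnla, a secreted protein of that state, was the largest of them at 0.82 (−0.15 to 1.80). Extracellular matrix genes had 20 of 28 lower and a median of −0.066. Genes of proliferation had a median of −0.030, and targets of Nrf2, the regulator of antioxidant genes, had a median of −0.0021 with 12 of 25 higher. The p53 target Cdkn1a, an inhibitor of cyclin-dependent kinases, stood at 0.62 (0.15 to 1.09, unadjusted p = 0.0103), above all vehicle arrays in 9 of 10 exposed arrays, while its list of 18 had a median of 0.051. Immediate early genes, which answer signals within minutes, had 22 of 27 higher and a median of 0.095, and Nr4a1 among them stood at 0.33 (−0.43 to 1.08). The study drew 10 biclusters of genes from other lung disease data. Bicluster 3, which it tied to chemokine activity, had a median of 0.023 to 0.21 over the 12 settings, lowest without the first NRCWE-002 array. Bicluster 7, which it tied to fibrosis, had 14 of 19 members higher and a median of 0.059. Bicluster 10, tied to reactive oxygen species and drawn from genes that were lower in those data, had a median of −0.0074. In at least 1 of the 12 settings the sign of the median turned for alveolar macrophage markers, lysosome and lipid genes, proliferation, Nrf2 targets and Bicluster 10, so no direction is given for these.

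Markers of heart muscle and airway, which a small section of lung can hold in varying amounts, had larger median differences than the lists above. Cardiac muscle markers had a median difference of 0.52 with 20 of 21 higher. Their mean level was 1.85, −0.09, −0.14 and −0.16 in the vehicle arrays, 1.81, 1.68, 0.84, −0.18 and 0.27 with NRCWE-001 and 1.97, −0.40, −0.30, 2.61 and 0.92 with NRCWE-002. Mice with high and with low values were thus present in every group. Of these 21 markers, 13 were above background on all arrays of each group. Sarcolipin (Sln), which regulates the calcium pump of atrial muscle, lay at 5.67 in the first vehicle array and near 0 in the other vehicle arrays, where 2 of 4 arrays were above background. Airway secretory markers had 14 of 15 higher and a median of 0.28, and their mean level was 2.05 to 3.72 in the vehicle arrays and 2.10 to 4.47 in the exposed arrays. Clca1, a goblet cell protein, lay at 7.68 in the second NRCWE-001 array and at 6.09, 8.06 and 3.75 in the first, the fourth and the fifth NRCWE-002 array. It was at most 1.23 in all other arrays, and 1 of 4 vehicle arrays was above background. Adipocyte markers had a median of 0.11 with 10 of 11 higher, ciliated cell markers 0.083 with 14 of 18, NK cell markers −0.11 with 0 of 10, mesothelial markers −0.13 with 0 of 7, and alveolar type 2 markers −0.092 with 4 of 13, while 9 of 18 endothelial markers were higher. The sign turned in at least 1 of the 12 settings for NK cell, type 2 and endothelial markers. None of these markers was called, and the part of tissue mix in the differences of single genes was not tested.

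**Figure D2:**
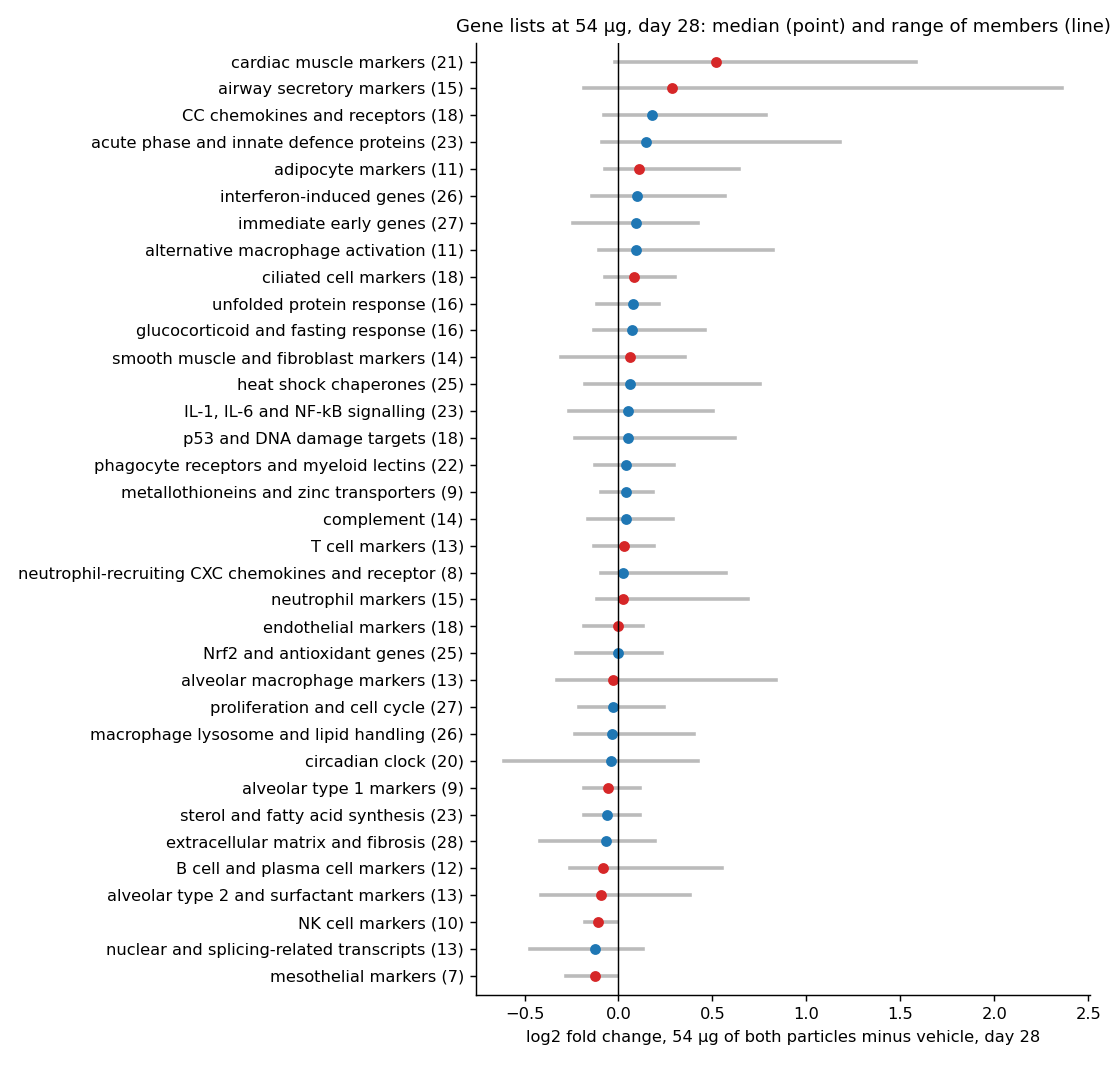
Median difference (point) and range over members (grey line) on the log2 scale for 35 gene lists, 54 µg of both particles against vehicle on day 28, with the number of genes beside each name; red marks cell type markers and blue the other lists. The medians lie between −0.13 and 0.52, with cardiac muscle and airway secretory markers at the upper end.

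Most acute phase genes had a larger difference from the vehicle on day 1 than on day 28, although no gene was called for the change between the days. On day 1 the same dose was set against its own 5 vehicle mice, and limma called 0 of 17628 genes or 0%, with 853 genes or 4.84% at an unadjusted p below 0.05. With the slide as a block, 208 genes were called higher and 57 lower, 1.5% of all genes together. Serum amyloid A3 (Saa3), an acute phase protein made in the lung, was among them. Its vehicle arrays of day 1 lay at −3.04, −3.36, −3.05, −3.78 and −3.36. The exposed arrays of that day lay at 2.21, 1.58, 3.85, −3.68 and −3.94 with NRCWE-001 and at 4.20, 1.20, 1.84, 4.65 and 2.31 with NRCWE-002. In 8 of the 10 exposed lungs Saa3 was far above the vehicle on day 1, and in 2 it was not.

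On day 28 the vehicle arrays of Saa3 lay at −3.72, −3.67, −3.46 and −3.74. The NRCWE-001 arrays lay at −3.43, −3.61, −3.28, −3.51 and −3.33, and the NRCWE-002 arrays at −1.96, −3.55, −3.18, −0.17 and −2.96. The mean difference from the vehicle was smaller than on day 1, in different mice and with a wide interval. Of the exposed arrays 7 of 10 lay above all 4 vehicle arrays, and the first and the fourth NRCWE-002 array were the highest. The difference was 4.74 (2.76 to 6.72) on day 1 and 0.75 (−1.39 to 2.89) on day 28. The change between the days was −3.99 (−6.91 to −1.07, unadjusted p = 0.00825), and it was not called, at an adjusted p of 0.999.

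Its relatives followed the same order of days. Saa1 was at 2.66 (1.52 to 3.81) on day 1 and 0.24 (−0.99 to 1.48) on day 28, where its 2 probes disagreed, at 0.04 and 0.44. Lipocalin 2 (Lcn2), which withholds iron from bacteria, was at 2.40 (1.35 to 3.45) on day 1 and 0.27 (−0.87 to 1.41) on day 28. On day 28 Lcn2 lay at 1.23 to 1.49 in the vehicle arrays and at 1.11 to 1.74 with NRCWE-001. With NRCWE-002 it lay at 2.49, 1.31, 0.95, 2.54 and 2.09, so 3 mice were above the vehicle range and 1 was below it. The 3 were the first, the fourth and the fifth array, which also had high Clca1. The copper carrier ceruloplasmin (Cp) was at 1.17 and 0.37 on the 2 days, the haem carrier hemopexin (Hpx) at 1.09 and 0.34, and the metalloproteinase inhibitor Timp1 at 1.86 and 0.20. The 2 probes of Timp1 were at 0.04 and 0.35 on day 28. Over the 23 acute phase genes the median was 0.71 on day 1, with 15 at an unadjusted p below 0.05, and 0.15 on day 28, with 1. The change between the days had a median of −0.60, with 19 of 23 lower and 10 at an unadjusted p below 0.05. Over all genes 502, or 2.85%, had such a p for the change between the days, and 0 of 17628, or 0%, were called by limma.

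The 208 genes higher on day 1 with the slide block had a median of 0.022 on day 28, with 126 above 0 and 82 below. With NRCWE-001 alone the median was −0.018, and with NRCWE-002 alone it was 0.061. The 57 genes lower on day 1 had a median of −0.058 on day 28. The fit that chose these genes took its variance and its slide terms from arrays of both days, so the choice was not independent of the day 28 arrays. Cxcl5, a chemokine for neutrophils, was above background on 8 of 10 exposed arrays on day 1 and on 4 of 10 on day 28. It was above background on 0 vehicle arrays on either day, so no fold is given, and its highest day 28 level was 0.16 in the fourth NRCWE-002 array.

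**Figure D3:**
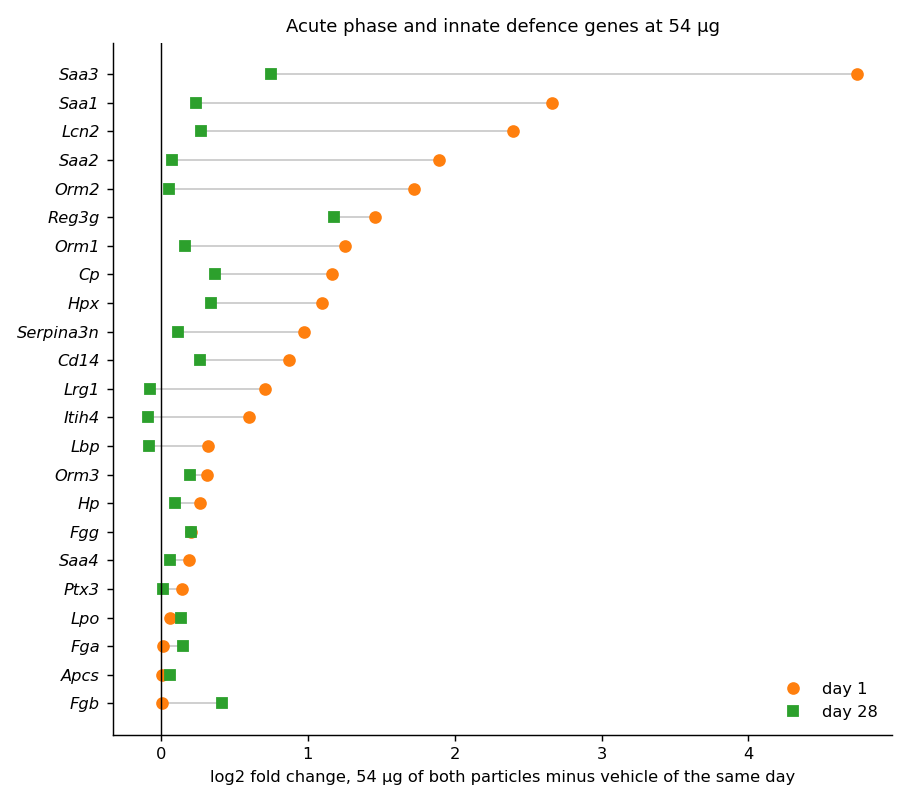
Difference from the vehicle of the same day (log2) for the 23 acute phase and innate defence genes at 54 µg, both particles pooled, on day 1 (orange circles) and day 28 (green squares). The largest, Saa3, is at 4.74 on day 1 and 0.75 on day 28, and the highest gene of day 28 is Reg3g at 1.18, with an unadjusted p of 0.293.

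In 162 µg minus 54 µg on day 28, limma called 8 of 17628 genes, or 0.0454%, all of them higher at 162 µg and most of them known from macrophages, and 1267 genes or 7.19% had an unadjusted p below 0.05. Spp1 (osteopontin) was higher at 162 µg by 1.63 (1.00 to 2.25, adjusted p = 0.0224). Gpnmb, a lysosomal glycoprotein, was higher by 1.65 (0.98 to 2.33, adjusted p = 0.0247), and Trem2, a lipid-sensing receptor, by 1.30 (0.80 to 1.80, adjusted p = 0.0224). Acod1, which makes itaconate in activated macrophages, was higher by 1.99 (1.17 to 2.81). The high-affinity Fc receptor gene Fcgr1 rose by 1.16, the inhibitory receptor gene Lilrb4a by 0.80, the stress-induced transcription factor gene Atf3 by 0.70 and the lysosomal galactosidase gene Gla by 0.52.

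No gene at all was called at 54 µg against the vehicle, so these 8 could not stand out there. They were also chosen with the same 54 µg arrays as the lower side, which favours values near the vehicle. Gpnmb lay at −4.06, −3.07, −3.91 and −4.01 in the vehicle arrays, at −3.31, −3.89, −3.76, −4.15 and −3.62 with NRCWE-001 and at −2.60, −3.36, −4.11, −3.47 and −4.21 with NRCWE-002. Its difference was 0.11 (−0.78 to 1.01), Spp1 had 0.40 (−0.43 to 1.23), Trem2 0.10 (−0.55 to 0.76) and Acod1 0.45 (−0.64 to 1.54). Spp1 lay between −5.25 and −4.85 in the vehicle arrays and between −5.28 and −4.18 in the 54 µg arrays. Trem2 lay between −2.19 and −2.09 in the vehicle arrays and between −2.62 and −1.31 in the 54 µg arrays, with the first NRCWE-002 array highest. At 162 µg the mice were split, with Gpnmb at −0.23, −3.68, −4.12, −0.34 and −0.56 for NRCWE-001 and at −3.91, 0.38, −3.64, −1.93 and −1.93 for NRCWE-002. The 8 calls rested on which of these mice were counted. They went to 0 when any of 9 arrays was left out, which were replicates 1, 4 and 5 of NRCWE-001 and 2, 4 and 5 of NRCWE-002 at 162 µg, and replicates 2 and 4 of NRCWE-001 and 3 of NRCWE-002 at 54 µg. Without replicate 1 of NRCWE-002 at 54 µg there were 85 calls, 80 of them higher. There were 102 to 155 without replicate 2 or 3 of NRCWE-001 or replicate 1 or 3 of NRCWE-002 at 162 µg, the mice with low Gpnmb, and 4 to 13 without any other array.

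Lists of macrophage genes went in both directions from 54 to 162 µg. Of 26 lysosome and lipid genes of macrophages, 3 were called, 12 had an unadjusted p below 0.05 and the median of 162 µg minus 54 µg was 0.24. Of 22 phagocyte receptors and lectins, 1 was called, 13 had an unadjusted p below 0.05 and the median was 0.34. Alveolar macrophage markers had 8 of 13 lower at 162 µg, 3 of them at an unadjusted p below 0.05, with a median of −0.17, and genes of alternative activation had 9 of 11 lower with a median of −0.11. Both medians were below 0 in all 12 settings, and 0 members of either list were called. Of 26 interferon-stimulated genes, 26 were higher at 162 µg, with a median of 0.59, and 24 had an unadjusted p below 0.05, but 0 were called by limma. Without the first NRCWE-002 array of 54 µg, in which these genes were high, 14 of the 26 were called. Of 23 genes of IL-1, IL-6 and NF-kB signalling, 14 had an unadjusted p below 0.05. Endothelial markers had 18 of 18 lower at 162 µg, with a median of −0.26. The share of all genes at an unadjusted p below 0.05 was 3.4% higher and 3.79% lower.

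The heat shock genes Hspa1a and Hspa1b were among the few that differed from the lower dose. In 54 µg minus 18 µg on day 28, limma called 8 of 17628 genes, or 0.0454%, with 2 higher and 6 lower at 54 µg. At an unadjusted p below 0.05 there were 949 genes or 5.38%, of which 3.28% were higher and 2.1% lower. Hspa1a was lower at 54 µg, at −0.66 (−0.94 to −0.39, adjusted p = 0.0364) and Hspa1b at −0.35 (−0.49 to −0.21, adjusted p = 0.035). At 18 µg Hspa1a lay at 3.14, 3.03, 3.05, 2.74 and 2.80 with NRCWE-001 and at 1.31, 2.07, 1.49, 1.40 and 1.66 with NRCWE-002. Thus the highest Hspa1a levels on day 28 were those of 18 µg NRCWE-001, the levels at 54 µg NRCWE-001 were all below them, and at both doses the NRCWE-002 arrays were lower on average. Against the vehicle the pooled difference of Hspa1a was 1.42 (1.05 to 1.79) at 18 µg, 0.75 at 54 µg and 0.91 (0.54 to 1.28) at 162 µg. These 3 comparisons share the 4 vehicle arrays. Hsph1 had 1.07 at 18 µg, 0.62 at 54 µg and 0.49 at 162 µg. Of the 25 chaperone genes, 21 were lower at 54 µg than at 18 µg, 2 were called (0 without the first NRCWE-002 array of 54 µg) and 8 had an unadjusted p below 0.05, with a median of −0.17.

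The other 6 called genes were the tetraspanin gene Tspan4 at −0.60 (−0.80 to −0.40, adjusted p = 0.00361), the mitochondrial folate enzyme gene Mthfd1l at −0.45, the pyrimidine carrier gene Slc25a33 at −0.28, the CoQ reductase gene Aifm2 at −0.28, the adhesion protein gene Mpzl1 at 0.29 and the acyl-CoA thioesterase gene Acot1 at 0.56 (0.32 to 0.81). Tspan4 was called in 29 of 31 settings, counting each array left out in turn, Mthfd1l in 22, Hspa1a in 15, Hspa1b in 14 and Acot1 in 7. Over the 20 arrays left out in turn, the number of called genes ran from 1 to 12. It was 1 when any of 5 arrays was left out, which were replicates 1 and 4 of NRCWE-002 and 3 of NRCWE-001 at 18 µg and replicate 3 of each particle at 54 µg. It was 2 to 5 without replicate 1, 4 or 5 of either particle at 54 µg or replicate 1 or 2 of NRCWE-001 at 18 µg. Cardiac muscle markers were lower at 54 µg than at 18 µg in 21 of 21 cases, with a median of −0.81, and adipocyte markers had a median of −0.56. Proliferation genes had 27 of 27 lower with a median of −0.14. The part of these cell mixes in the differences of the chaperone genes was not tested.

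Of 20 clock genes, 10 were lower and 2 higher at 54 µg than at 18 µg with an unadjusted p below 0.05. At that p 2.1% of all genes were lower and 3.28% higher. Of the 20 clock genes 0 were called by limma, and their median was −0.14. With the slide as a random block 31 of all genes were called, and 6 of these were clock genes, among them Arntl, Bhlhe40 and Ciart. Per1, a repressor of the clock that also answers stress signals, lay at −0.13, −0.15, 1.48 and −0.77 in the vehicle arrays. At 54 µg it lay at 0.57, 0.52, 0.63, 0.32 and 0.61 with NRCWE-001 and at −0.36, 0.94, −0.36, −0.50 and −0.27 with NRCWE-002, while at 18 µg the values were 1.40, 1.28, 1.72, 0.87 and 1.50 with NRCWE-001 and 0.84, 1.04, 1.14, 0.61 and 0.15 with NRCWE-002. The 5 NRCWE-001 arrays of 54 µg lay close together, while 1 NRCWE-002 array, the second, lay far above the other 4. For 54 µg minus 18 µg Per1 had −0.85 (−1.24 to −0.45, adjusted p = 0.0911), and without that second array Per1 and Tef, a relative of the output factor Dbp, were called. Against the vehicle it was 0.10 (−0.42 to 0.62). The repressor Ciart had −0.48 for 54 µg minus 18 µg, the output factor Dbp had −0.78, Bhlhe40 had −0.52, and Arntl (Bmal1), the activator that these repressors oppose, had 0.59. Dbp was also below the vehicle at 54 µg, at −0.61 (−1.11 to −0.10, unadjusted p = 0.0187), in 9 of 10 exposed arrays below all 4 vehicle arrays. It lay at 1.41 to 1.63 in the vehicle arrays, at 0.61, 1.37, 1.02, 1.36 and 1.03 with NRCWE-001 and at 0.46, 1.48, 0.68, 0.67 and 0.74 with NRCWE-002. Nfil3, which competes with Dbp for its sites, was above all vehicle arrays in 9 of 10, at 0.42 (0.07 to 0.77). The hour at which lungs were taken was not given in the sources used here, and its part in these genes was not tested.

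Some clock repressors carry E-boxes, to which the activator Arntl binds with Clock, and the promoters of 2 of them are shown for that reason. The 250 bases before the start are given, in the same build, with the E-box CACGTG, a palindrome, in capitals. The first is on the plus strand, where 2 starts are listed and the first was taken, and the second is on the minus strand.
Per1, chr11:69098699-69098948: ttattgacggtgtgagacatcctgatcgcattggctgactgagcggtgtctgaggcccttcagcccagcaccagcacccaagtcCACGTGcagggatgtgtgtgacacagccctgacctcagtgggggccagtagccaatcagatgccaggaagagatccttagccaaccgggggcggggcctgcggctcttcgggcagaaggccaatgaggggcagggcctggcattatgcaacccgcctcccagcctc
Ciart, chr3:95882229-95882478: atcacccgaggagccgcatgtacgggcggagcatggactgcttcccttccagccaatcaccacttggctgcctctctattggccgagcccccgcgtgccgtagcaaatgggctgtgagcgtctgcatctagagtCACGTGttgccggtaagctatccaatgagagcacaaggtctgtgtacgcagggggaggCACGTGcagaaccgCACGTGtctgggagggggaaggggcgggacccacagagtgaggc
Per1 held 1 E-box, 166 bases before the start, and Ciart held 3, at 116, 58 and 44 bases. Of 16 clock genes with a promoter in the table, 5 or 31.2% held an E-box, compared with 6.05% of all 27025 promoters, and 18 promoters or 0.0666% held 3 or more. The rest of the 16 held none in these 250 bases, and a match was not tested as a binding site.

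**Figure D4:**
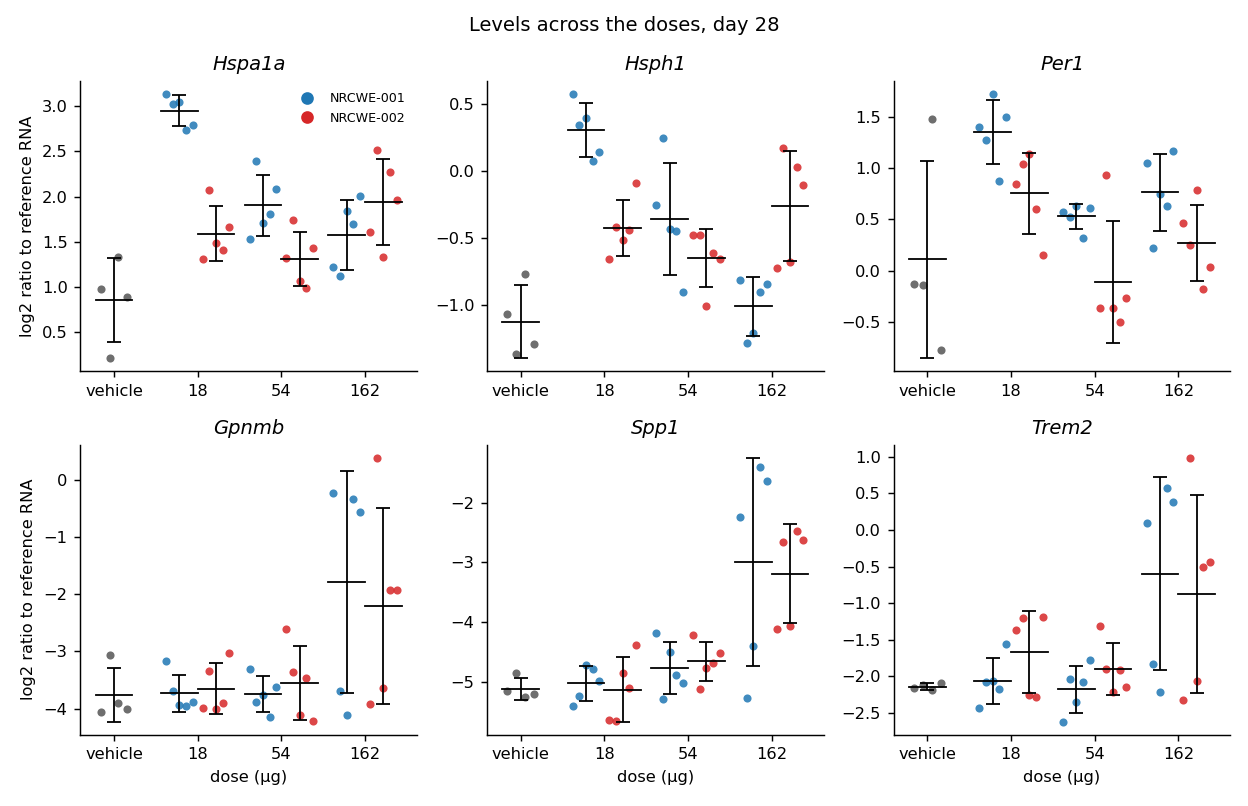
Level (log2 ratio to reference RNA) of Hspa1a, Hsph1, Per1, Gpnmb, Spp1 and Trem2 on day 28 in vehicle mice (grey) and at 18, 54 and 162 µg of NRCWE-001 (blue) and NRCWE-002 (red); points are mice, and mean and SD are drawn. Hspa1a is highest at 18 µg NRCWE-001 with 2.74 to 3.14, and Gpnmb, Spp1 and Trem2 are near the vehicle at 54 µg and split between mice at 162 µg.

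Between the particles at 54 µg, 5 genes differed after adjustment. In NRCWE-002 minus NRCWE-001, limma called 5 of 17628 genes, or 0.0284%, with the variance taken over all 69 arrays, and 2 genes in a fit of the arrays of this contrast alone. An unadjusted p below 0.05 was found for 1403 genes or 7.96%. All 5 NRCWE-002 arrays lay above all 5 NRCWE-001 arrays for 149 genes or 0.845%, and below them for 93 genes or 0.528%. Id1, an inhibitor of helix-loop-helix factors that is switched on by bone morphogenetic proteins, lay at 0.74, 1.05, 1.06, 1.21 and 1.15 with NRCWE-001 and at 0.11, −0.03, 0.19, 0.24 and 0.34 with NRCWE-002. It lay at 0.43, −0.09, 1.15 and 0.59 in the vehicle arrays, which spanned both particles. The difference was −0.87 (−1.23 to −0.52, adjusted p = 0.0389). Srf, the serum response factor, lay at 0.73, 0.34, 0.37, 0.52 and 0.43 with NRCWE-001 and at 0.12, −0.01, 0.01, 0.06 and 0.24 with NRCWE-002, a difference of −0.39 (−0.56 to −0.23). The vehicle arrays, at 0.05 to 0.22, lay with NRCWE-002. Gper1, a membrane oestrogen receptor, lay at 0.23 to 0.64 with NRCWE-001, at −0.08 to 0.13 with NRCWE-002 and at 0.10 to 0.24 in the vehicle arrays, a difference of −0.43 (−0.61 to −0.26).

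The other 2 called genes were higher with NRCWE-002. Rgs2, which dampens signalling by G proteins, lay at 0.80, 1.13, 1.07, 1.22 and 1.20 with NRCWE-001 and at 1.73, 1.57, 1.96, 1.70 and 1.74 with NRCWE-002, a difference of 0.66 (0.39 to 0.93). Its vehicle arrays, at 1.15 to 1.84, reached from one particle to the other. Foxp1, a transcription factor of lung epithelium and lymphocytes, lay at 1.25 to 1.39 with NRCWE-001, at 1.69 to 2.37 with NRCWE-002 and at 1.41 to 1.53 in the vehicle arrays, a difference of 0.55 (0.32 to 0.79, adjusted p = 0.04). Its highest value came from the NRCWE-002 array that stood apart, and without that array the difference was 0.43. Klf4, an immediate early factor of epithelium and endothelium, missed the threshold at an adjusted p of 0.0508, was called with the slide as a random block and with the deposited ratios, and had a larger difference than these 5, and it was chosen after its values were seen. It lay at 2.94, 2.86, 2.85, 2.54 and 2.89 with NRCWE-001 and at 1.36, 1.69, 1.13, 1.41 and 1.52 with NRCWE-002, and its vehicle arrays, at 1.79, 1.50, 3.21 and 1.91, spread across both. The difference was −1.39 (−1.99 to −0.80).

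On the 2 slides that held an array of each particle, the differences were −0.83 and −0.87 for Id1, −0.31 and −0.28 for Srf and −0.30 and −0.56 for Gper1. They were 0.63 and 0.52 for Rgs2, 0.31 and 0.58 for Foxp1 and −1.44 and −1.02 for Klf4. The arrays of the 2 particles did not overlap for any of these genes, so the signs on these slides could not have differed. With the slide as a fixed block, 8 genes or 0.0454% were called. Id1, Srf and Gper1 were among them at an adjusted p of 0.0202, and Rgs2 (0.29) and Foxp1 (0.18) were not. The calls rested on single mice. Leaving out any one of 9 of the 10 arrays, all but the second NRCWE-001 array, took the count of 5 to 0, and without that second array 3 were called. All 5 genes kept their sign in each of these settings, which the lack of overlap between the particles made certain.

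No member of the lists below was called between the particles, so their values are given as a description. Interferon-stimulated genes were higher with NRCWE-002 in 25 of 26 cases, with a median of 0.49. Without the first NRCWE-002 array, whose Cxcl9 lay at 3.19 and Cxcl10 at 1.73, the median was 0.14 and 21 of 26 were higher. B cell and plasma cell markers had a median of 0.43, with 7 of 12 at an unadjusted p below 0.05, where 4.38% of all genes were higher at that p. Among them Cd79b, a part of the B cell receptor, was at 0.86 (0.33 to 1.39), and Ms4a1 (CD20) was at 0.85. The mean level of these 12 markers was −0.75 to −0.33 with NRCWE-001, −0.34 to 0.31 with NRCWE-002 and −0.66 to 0.03 in the vehicle arrays. Without the first NRCWE-002 array the median was 0.35 and 3 had an unadjusted p below 0.05. NK cell markers were higher with NRCWE-002 in 10 of 10 cases, with a median of 0.31, and T cell markers had 5 of 13 at an unadjusted p below 0.05 and a median of 0.20, but 3 and 0.11 without the first NRCWE-002 array.

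Of 25 heat shock genes, 5 were lower with NRCWE-002 at an unadjusted p below 0.05 and 0 were called, and the median was −0.094. Hspa1a was at −0.60 (−0.99 to −0.20) and Dnajb1 at −0.48 (−0.75 to −0.21, unadjusted p = 7.3e-04). Of the genes of sterol and fatty acid synthesis, 6 of 23 were lower at an unadjusted p below 0.05, among them Cyp51, a demethylase of the cholesterol route, at −0.48. Of the immediate early genes, 4 of 27 were lower at that p, and of the proliferation genes 6 of 27 were higher, or 3 without the first NRCWE-002 array, though the medians of both lists turned sign in at least 1 of 12 settings. Acute phase genes had 3 of 23 higher at that p. CC chemokines and their receptors had a median of 0.22 to 0.49 over the 12 settings, with at most 2 members higher at that p. Of all genes, 3.58% were lower and 4.38% higher at an unadjusted p below 0.05.

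**Figure D5:**
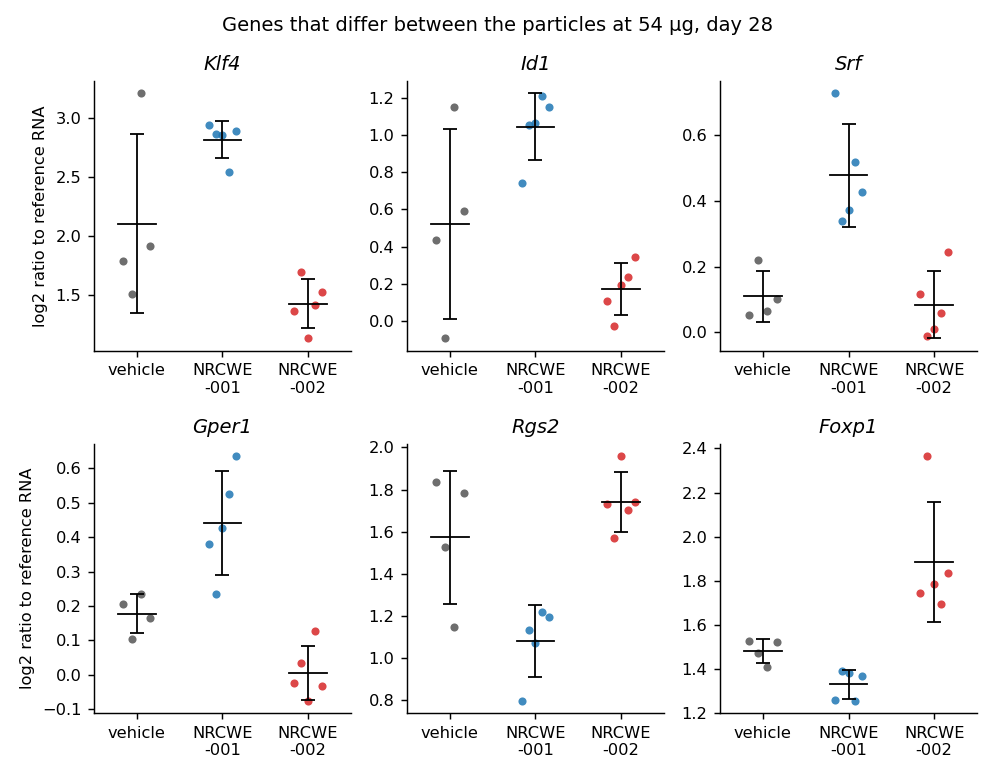
Level (log2 ratio to reference RNA) of Klf4, Id1, Srf, Gper1, Rgs2 and Foxp1 on day 28 in vehicle mice and at 54 µg of NRCWE-001 and NRCWE-002; points are mice, and mean and SD are drawn. For each gene the 5 NRCWE-001 and the 5 NRCWE-002 mice do not overlap, by −1.39 in the mean for Klf4 and 0.66 for Rgs2, and the 4 vehicle mice of Klf4 and Id1 spread across both.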

How the data were processed

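RNA from 69 mouse lungs had been hybridised to 2-colour arrays with Cy5 for the lung and Cy3 for a common reference, and no dyes were swapped. The deposited scanner output, made by the authors with Agilent Feature Extraction 11.0.1.1, gave intensities of both channels, local background and processed signals. The deposited table of processed values held the authors' log2 ratios, normalised within arrays by LOWESS, and served as one of the alternatives. Median intensities were corrected with normexp (offset 50, fitted without spots whose local background was more than 10 MAD, the median absolute deviation, from the array median), normalised by loess and averaged by the median per probe and per gene. Control and outlier spots were left out. A probe was kept when well above background in the lung channel on at least 4 arrays. Of 41174 probes, 27479 matched a symbol in the RefSeq table of GRCm38.p6, which gave names alone because the array annotation was of build mm9. This left 17628 genes, 11356 of them with 1 probe, and arrays hold no count of molecules, so the number of arrays limits the precision.

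Groups came from the labels, in 14 groups of 5 arrays, with 4 for the day 28 vehicle. Genes were tested with limma 3.58.1 in R 4.3.3 by 1 fit of 14 group means over all 69 arrays, with Benjamini-Hochberg adjustment within each contrast and a call at an adjusted p below 0.05. Tests were 2-sided. Each array was a separate mouse. The fit was tested on simulated data. The 14 arrays lay on 8 of 18 slides, so the slide and the scan day were tried as blocks. Other alternatives were the authors' deposited log2 ratios, no background correction, processed signals, median centring, other filters, the groups of the contrast alone, and each array left out. Leaving out the 2 odd arrays together, the list medians under other settings, and the within-slide differences between particles were added after the data were seen.

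The arrays, gene lists and tests were chosen with earlier results of these data known. Named genes were the 10 higher and 10 lower with the smallest p in the pooled comparison, since under 10 were called, the called genes of the other contrasts, Saa3, Saa1, Lcn2, Cxcl5, Hspa1a and Nr4a1, and of each list the called members or the 2 with the smallest p. Other genes were chosen after their values were seen. Each level of a list on an array is the mean over its members.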

Additional observations from a re-analysis of the deposited data

Results flagged for a closer look

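Arrays far from the rest of their group, by the gap to the nearest array relative to the range of the group, were found in 10 of 135 sets of levels, where chance gives about 1 in 20. In the vehicle group these were Xist at −3.28 on the fourth array, Cyp2j6 at 0.77 on the first and Gpnmb at −3.07 on the second. With NRCWE-001 they were Adcy7 at 0.83 and Fut8 at −0.070, both on the fourth array. With NRCWE-002 they were Max at 0.59, Acot1 at 1.60 and Gla at −2.44 on the third array, and Map2k6 at −0.56 and Foxp1 at 2.37 on the second, which also stood apart over all genes.

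The particles differed at 54 µg on day 28, tested as NRCWE-002 minus NRCWE-001 with limma, in Id1 (−0.87), Rgs2 (0.66), Foxp1 (0.55), Gper1 (−0.43) and Srf (−0.39).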

How the results depend on the processing

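The pooled comparison of 54 µg with the vehicle called 0 genes under each alternative and with each of the 14 arrays left out, with 252 to 753 genes at an unadjusted p below 0.05, and so did NRCWE-002 alone with each of 9 arrays left out and the change between the days with each of 29. NRCWE-001 alone called 3 genes with the slide as a random block, 1 with the deposited ratios, 1 with processed signals, and 0 to 1 with an array left out. NRCWE-002 minus NRCWE-001, with 5 calls, gave 8 with the slide as a fixed and 8 as a random block, 0 without background correction, 0 with processed signals, 0 with median centring, 2 with the arrays of the contrast alone, 0 to 3 with an array left out, and 0 without the vehicle array of low Xist and the NRCWE-002 array that stood apart.

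For 54 µg minus 18 µg the 8 calls, 2 higher and 6 lower, became 13 (8 higher, 5 lower) with a fixed slide block, 31 (17 higher, 14 lower) with a random one, 15 (8 higher, 7 lower) with scan day, 5 with the deposited ratios, 1 with processed signals, 0 with median centring, 0 with the arrays of the contrast alone and 1 to 12 with an array left out. For 162 µg minus 54 µg the 8 calls, all higher, became 18 (10 higher, 8 lower), 185 (135 higher, 50 lower) and 75 (55 higher, 20 lower) with these blocks, 23 with the deposited ratios, 19 without background correction, 23 with processed signals, 14 with the stricter filter, 0 with median centring, 0 with the arrays of the contrast alone, 0 to 155 with an array left out and 0 without the 2 odd arrays. The cause was not tested.

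Of the single-gene values, Cyp2j6 turned to 0.043 with processed signals, 943 others kept their direction and side of the threshold and 304 kept the direction alone. All 304 were lost calls of genes called between the particles or the doses. Genes of the pooled comparison had no call to lose, and they make up much of the 943. Between the particles, Id1 was called in 7 of 21 settings and Rgs2 in 2. No paired analysis was possible because the replicate numbers follow the order of deposit and tie no mice together. Dim probes have compressed ratios, no dye swap was made, and only 4 vehicle mice stand behind each comparison with the vehicle on day 28.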
